A study of Arabidopsis thaliana with 2 samples.

Results

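RLK902 (AT3G17840), WRKY41 (AT4G11070) and PLDBETA1 (AT2G42010) are 3 Arabidopsis thaliana genes of plant defence that lay under peaks in a chromatin immunoprecipitation experiment on the NAC transcription factor ATAF1. They were chosen from the deposited peak list itself, as genes named in its column of overlapping annotations. They account for 4 of the 439 peaks, 1 each on RLK902 and WRKY41 and 2 on PLDBETA1. That a peak lies on each gene is therefore how the genes were found and not a result, and the values of these peaks are given as a description with no test.

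Sequencing was done on DNA that an anti-HA antibody had pulled down from rosettes of a 35S:ATAF1-HA line, in which the tagged factor is over-expressed in the Col-0 ecotype, and from wild-type Col-0 plants, which carry no tag. Both had grown for 5 weeks on soil with 8 h of light per day at 21 °C. The 35S promoter is active in most tissues, so the tagged protein was not limited to the cells and times in which ATAF1 is normally made, and the labels do not say how many transgenic lines were used. There was 1 library per genotype, reads are given once per peak without naming the library, and total depth is unknown. No value below therefore compares ATAF1-HA with Col-0 plants. Intervals on strand shares cover counting error only. They treat reads as independent molecules, which reads from PCR are not, so they may be too narrow. Exact intervals on shares of peaks treat the other peaks as a random sample and leave out error in a peak's own reads.

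Plants recognise microbes at the cell surface through receptor-like kinases, pass the signal on through cytoplasmic kinases and lipid messengers, and change transcription through factors such as the WRKY family. RLK902 is a leucine-rich repeat receptor-like kinase of the plasma membrane that contributes to resistance against Pseudomonas bacteria. PLDBETA1 encodes a calcium-dependent phospholipase D, which cleaves membrane phospholipids to the messenger phosphatidic acid and affects resistance to bacteria and to the fungus Botrytis in opposite directions. WRKY41 is a group III WRKY factor that acts in the response to Pseudomonas and also in seed dormancy. ATAF1 itself has known roles in drought, abscisic acid and pathogen responses.

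The receptor gene RLK902 had the peak with the most reads of the 4. Its peak lay on chromosome 3, from 6106271 to 6106294 (TAIR 9), with a deposited length of 23 bp, and held 306 reads, 181 forward and 125 reverse. The authors' false discovery rate (FDR) for it was 0.00592% and their p-value was 0. By reads it ranked 87 in the list, above 79.9% of the other 438 peaks (exact binomial 95% interval 75.8 to 83.6), and 29 peaks had a lower FDR. It ranked 17 among the 90 peaks of chromosome 3. The symbol RLK902 is given to 2 loci of this chromosome in the RefSeq gene table, AT3G17840 and AT3G18740. The peak was taken as AT3G17840 because the nearest named peaks on either side lie on AT3G17830 and AT3G18660.

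The lipid-signalling gene PLDBETA1 held 2 peaks of almost the same size. The peak at the lower coordinate, on chromosome 2 from 17535160 to 17535188, had 188 reads, 114 forward and 74 reverse, and an FDR of 0.523%. The peak at the higher coordinate, from 17537726 to 17537827, had 190 reads, 90 forward and 100 reverse, and an FDR of 0.403%. The deposited p-value was 0 for both. By reads, they stood above 40.2% (exact 95% interval 35.6 to 44.9) and 41.3% (36.7 to 46.1) of the other peaks of the whole list. This place depended on the measure. Among peaks with an FDR under 1% the shares were 9.78% and 11.6%, with the lower-coordinate peak first. By reads divided by deposited length plus 1 bp (reads per bp) over the whole list, they were 62.6% and 9.82% in the same order. The list does not state gene strand, so which of these peaks is nearer to the start of PLDBETA1 was not determined.

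The transcription factor gene WRKY41 had the weakest of the 4 peaks. It lay on chromosome 4 from 6760387 to 6760491, with 126 reads, 61 forward and 65 reverse, with its FDR at 2.12% and its p-value at 0. By reads it ranked 380 in the list and 58 of 63 on its chromosome, and it stood above 13.2% of the other peaks (exact 95% interval 10.2 to 16.8). That share was 4.11% by reads per bp and 27.6% by the smaller of the strand counts. Over the whole list the median was 215 reads, with quartiles at 141.5 and 281. RLK902 therefore lay above the upper quartile, both PLDBETA1 peaks lay between the lower quartile and the median, and WRKY41 lay below the lower quartile. The p-value was no guide among them, since 373 of the 439 peaks had a p-value of 0.

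**Figure D1:**
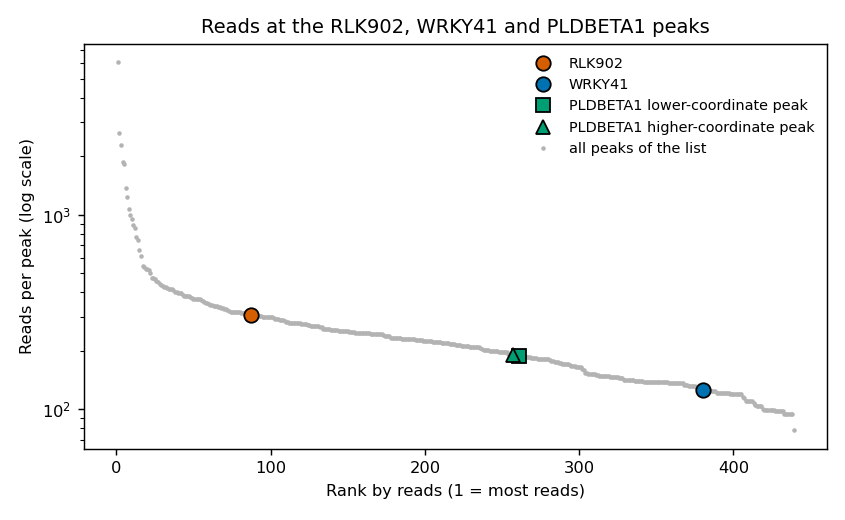
Reads per peak (log scale) against rank by reads for all 439 peaks, with the peaks on RLK902, WRKY41 and PLDBETA1 marked. RLK902 (306 reads) stands at rank 87, the PLDBETA1 peaks (188 and 190 reads) at ranks 261 and 257, and WRKY41 (126 reads) at rank 380.

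The 4 peaks fell into 2 shapes. The RLK902 peak (23 bp) and the lower-coordinate PLDBETA1 peak (28 bp) were short, and 17.1% and 26.3% of the other peaks were shorter. The WRKY41 peak (104 bp) and the higher-coordinate PLDBETA1 peak (101 bp) were long for this list, with 93.8% and 93.6% of the other peaks shorter, against a median of 40 bp over all peaks. The observed strand shares divided them in the same way. Forward reads made up 59.2% of the reads at RLK902 (Wilson 95% interval 53.6 to 64.5) and 60.6% at the lower-coordinate PLDBETA1 peak (53.5 to 67.3), and both intervals lay above an even 50%. They made up 48.4% at WRKY41 (39.9 to 57.1) and 47.4% at the higher-coordinate PLDBETA1 peak (40.4 to 54.4), and these intervals held 50%. The median over the list was 48.7%, with quartiles at 40.1% and 56.5%. The interval of each of the short peaks overlapped those of both long peaks, and no difference between them was tested. With 4 peaks no relation of length to strand was tested either.

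**Figure D2:**
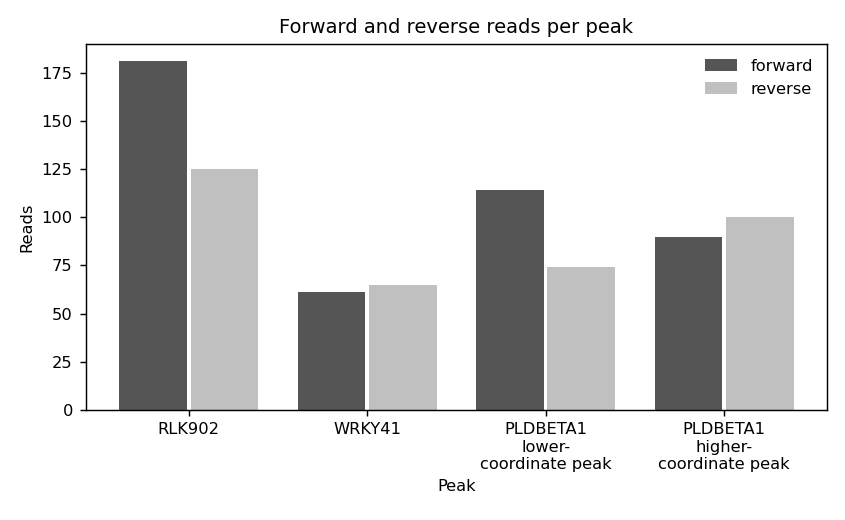
Forward (dark bars) and reverse (light bars) reads in each of the 4 peaks, as deposited. Forward reads exceed reverse reads at RLK902 (181 and 125) and at the lower-coordinate PLDBETA1 peak (114 and 74), while WRKY41 (61 and 65) and the higher-coordinate PLDBETA1 peak (90 and 100) have slightly more reverse reads.

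The deposited strand imbalance, which is 0 for equal strands and 1 where all reads lie on 1 strand, follows from the same reads. It was 0.183 at RLK902, 0.213 at the lower-coordinate PLDBETA1 peak, 0.0526 at the higher-coordinate PLDBETA1 peak and 0.0317 at WRKY41. The median over the list was 0.165 and the highest value was 0.495. WRKY41 was thus among the more even peaks of the list, with 12.1% of the other peaks more even. Reads are not corrected for length in the list. Deposited length need not be the window in which reads were counted. The peak on AT3G33002 had a length of 0 bp with 343 reads, and that on SECA2 1 bp with 883. Reads divided by deposited length plus 1 bp are therefore an index and not a read density. This index was 12.8 at RLK902, 6.48 at the lower-coordinate PLDBETA1 peak, 1.86 at the higher-coordinate PLDBETA1 peak and 1.20 at WRKY41. The median over all peaks was 5.15. The order of the PLDBETA1 peaks by reads, which differed by 2 reads, turned round on this scale.

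**Figure D3:**
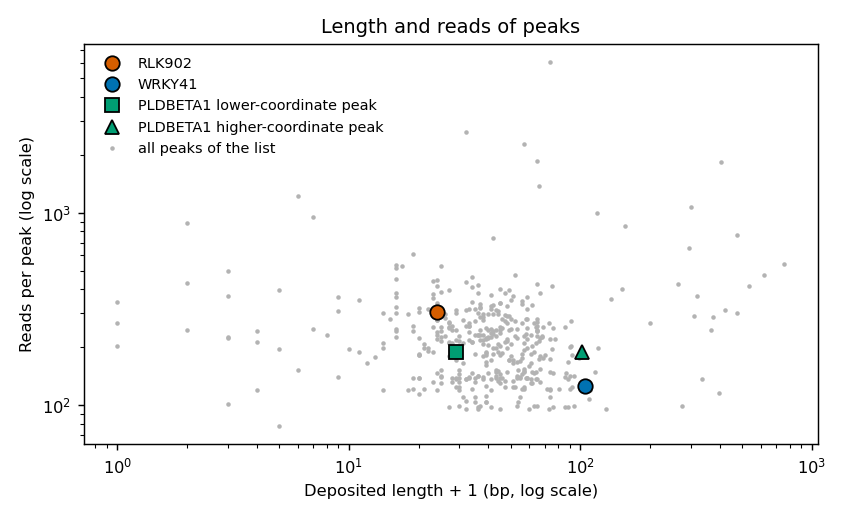
Reads per peak against deposited length plus 1 bp, both on log scales, with every peak of the list as a grey point. RLK902 (23 bp) and the lower-coordinate PLDBETA1 peak (28 bp) lie to the left of the median of 40 bp, and WRKY41 (104 bp) and the higher-coordinate PLDBETA1 peak (101 bp) to its right.

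All 4 peaks had an FDR close to the lowest that the list gives at their number of reads. Other peaks lay there too, and their share of the list was not counted, so this is not shown to be particular to these 4. Of the 352 other peaks with at most as many reads as RLK902, 3 had a lower FDR. The same held for 2 of the 59 such peaks for WRKY41, for 10 of 178 for the lower-coordinate PLDBETA1 peak and for 4 of 182 for the higher-coordinate one. Many peaks with more reads had a higher FDR. They numbered 58 of 86 for RLK902, 51 of 379 for WRKY41, 70 of 260 for the lower-coordinate PLDBETA1 peak and 74 of 256 for the higher-coordinate one.

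Peaks of equal size show how far FDR and reads can part. RLK902 and the nitrate reductase gene NIA1 each had 306 reads and the same FDR of 0.00592%, while AT3G42540, also with 306 reads, had 0.948%. The higher-coordinate PLDBETA1 peak had an FDR of 0.403%, against 3.05% at PUB17, a ubiquitin ligase gene whose peak also held 190 reads. AT3G42540 and PUB17 were singled out after their values were seen.

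FDR values were shared, and 406 of the 439 peaks had one that at least 1 other peak also had. WRKY41's 2.12% was held by 15 peaks with 125 to 312 reads, and 9 of these, WRKY41 included, lay within 1 read of its 126. The 0.523% of the lower-coordinate PLDBETA1 peak was held by 4 peaks. Besides PLDBETA1, AT1G61490 and AT2G07693 had 188 reads in all, and AT4G34090 had 295 reads of which 188 were reverse. The 0.403% of the higher-coordinate peak was likewise held by 4. ECT5 had 189 reads in all, while RDUF2 and a peak with no named gene had 330 and 350 reads, of which 189 were forward in each. In these 2 groups the same FDR was found at a total and at a single-strand count of like size. That was not so for every peak of the other groups. RLK902's FDR was also held by peaks of 318 reads (132 forward and 186 reverse) and 856 reads (413 and 443), with neither strand count near 306. WRKY41's group was mixed. AT1G33680 had 223 reads, of which 125 were forward, and GH9B12 had 187, of which 124 were reverse. The same FDR was also held by peaks of 134 reads (50 and 84), 174 reads (70 and 104), 252 reads (86 and 166) and 312 reads (218 and 94). In these, neither strand count was near 126. No source used here gives how the authors computed the FDR.

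**Figure D4:**
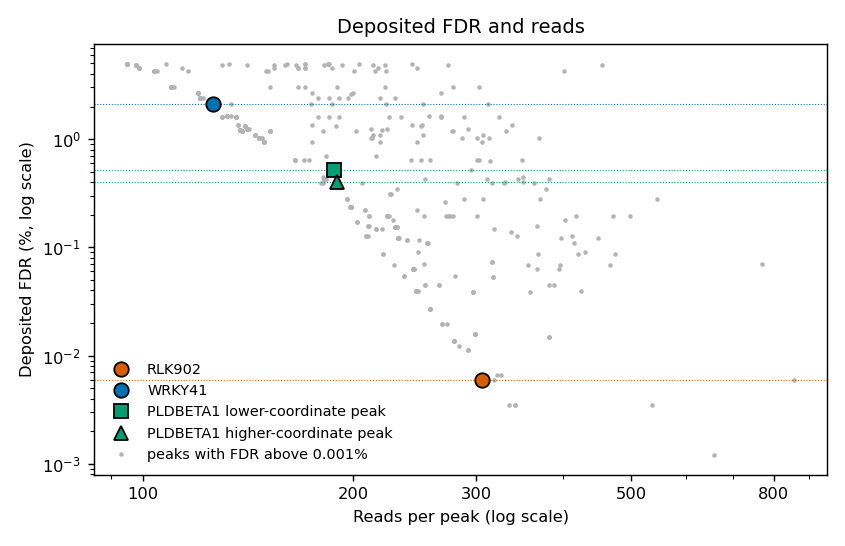
Deposited FDR (percent) against reads per peak, both on log scales, for peaks with an FDR above 0.001%. Dotted lines mark the FDR of each of the 4 peaks, which lie along the lower edge of the cloud, from WRKY41 (2.12%) to RLK902 (0.00592%).

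PLDBETA1 was 1 of 5 protein-coding genes with 2 peaks, and its pair was the most even in reads. The larger of its peaks had 1.01 times the reads of the smaller, against 1.10 for AT3G20350, 1.69 for the SUMO ligase gene SIZ1, 3.28 for AT2G07981 and 3.37 for AT1G40104. Its peaks lay 2538 bp apart, against gaps of 850 bp in AT3G20350, 869 bp in AT2G07981, 1212 bp in AT1G40104 and 2658 bp in SIZ1. A p-value of 0 at both peaks was found in PLDBETA1 and in AT3G20350. Summed, the PLDBETA1 peaks held 378 reads, the fewest of the 5 genes, with 484 in AT3G20350, 616 in AT1G40104, 651 in AT2G07981 and 1223 in SIZ1. As pieces of 1 gene, the PLDBETA1 peaks are not replicates of each other.

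The gene next to RLK902 in chromosome order also lay under a peak. AT3G17830, annotated as DNA J protein A4 (DJA4), a co-chaperone of the DnaJ class, had 182 reads, 93 forward and 89 reverse, and an FDR of 0.429% from 6102442 to 6102486. The gap to the RLK902 peak was 3785 bp, and 7.99% of the other peaks had a neighbour at that distance or nearer. RLK902 was thus the larger of these peaks, with 306 reads against 182 at AT3G17830. Its forward share was 59.2% against 51.1% at AT3G17830 (Wilson 95% interval 43.9 to 58.3), and these intervals overlap. RLK902 and AT3G17830 were 1 of 3 pairs of adjacent protein-coding genes with separate peaks in the list.

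**Figure D5:**
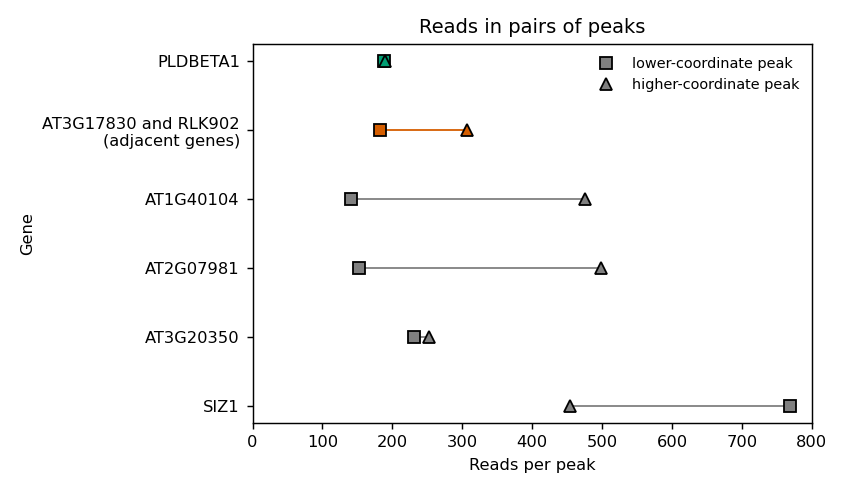
Reads in the lower-coordinate (squares) and higher-coordinate (triangles) peak of each protein-coding gene with 2 peaks, and in the peaks of RLK902 (higher coordinate) and the adjacent gene AT3G17830 (lower coordinate). The PLDBETA1 peaks (188 and 190 reads) nearly coincide, RLK902 stands at 306 and AT3G17830 at 182, and SIZ1 is the 1 gene with more reads in its lower-coordinate peak (769) than in its higher-coordinate peak (454).

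On the other side of RLK902, AT3G17850 and the jasmonate repressor gene JAZ3 (AT3G17860) follow in the RefSeq order, and neither was named by a peak. Nor was the glutamine synthetase gene GLN1.3 (AT3G17820), beyond AT3G17830. WRKY41 stood alone, 199284 bp from the nearest other peak, against a median of 81510 bp for the list. None of its 2 nearest protein-coding genes on each side was named by a peak. These were GH9C3 (AT4G11050), a glycosyl hydrolase gene, MTSSB (AT4G11060), for a mitochondrial single-stranded DNA-binding protein, 3xHMG-box1 (AT4G11080), for a high mobility group protein, and TBL23 (AT4G11090). For PLDBETA1 the same held for the metallothionein gene AtMT4a (AT2G42000), AT2G42005, AT2G42030 and AT2G42040.

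The neighbour columns of the list place the 3 genes unequally well. For PLDBETA1 they gave AT2G42005 at 2578 bp from the lower-coordinate peak and at 5144 bp from the higher-coordinate peak, and PLDBETA1 itself, without a distance, on the other side. For RLK902 one column was empty and the other named COBL2 at 5.62 Mb, and for WRKY41 one was empty and the other named INT4 at 2.53 Mb. A listed neighbour more than 20000 bp away was found in 316 of the 439 peaks. The overlap column named WRKY41 5 times at its peak and RLK902 and PLDBETA1 3 times at each of theirs. Of the 291 peaks on a protein-coding gene, 41 named it 5 times and 225 named it 3 times, and what each naming stands for is not stated. Exons, introns and untranslated regions are not given.

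The peaks most like each of the 4 were sought among those on protein-coding genes, by the distance over reads and length (both log2) and forward share in units of each measure's SD. For RLK902 they were BT1 (AT5G63160), for a BTB and TAZ domain protein, with 278 reads over 30 bp (distance 0.359), and AT3G28820, with 301 reads over 28 bp (0.444). For WRKY41 they were AT1G34510, with 110 reads over 73 bp (0.481), and GTE6 (AT3G52280), with 148 reads over 73 bp (0.503). For the lower-coordinate PLDBETA1 peak they were AT5G23350, with 191 reads over 21 bp (0.397), and AT1G10657, with 152 reads over 29 bp (0.416). For the higher-coordinate peak they were PDAT (AT5G13640), a phospholipid:diacylglycerol acyltransferase gene, with 175 reads over 98 bp (0.395), and the oleosin gene OLEO3 (AT5G51210), with 201 reads over 89 bp (0.428). All 8 had a p-value of 0. FDR was not part of the distance. It was lower at RLK902 (0.00592%) than at BT1 (3.05%) and AT3G28820 (0.647%), and lower at the lower-coordinate PLDBETA1 peak (0.523%) than at AT5G23350 (2.40%) and AT1G10657 (1.20%). It was also lower at the higher-coordinate PLDBETA1 peak (0.403%) than at PDAT (0.948%) and OLEO3 (4.29%). WRKY41 (2.12%) stood between AT1G34510 (3.05%) and GTE6 (1.03%). How other peaks of the list compare in FDR with their own nearest peaks was not counted. A lower FDR than at like peaks is thus not shown to be particular to RLK902 or PLDBETA1.

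Other genes of the same families and pathways were read from 10 lists with 171 distinct genes. Besides the 3 genes themselves, 2 of the other 168 lay under a peak (1.19%), against 1.05% of all 27444 nuclear protein-coding genes (288 genes), a share near that background. EDR1 (AT1G08720), a Raf-like protein kinase gene that restrains resistance to powdery mildew, had 316 reads, 171 forward and 145 reverse, from 2776524 to 2776556 on chromosome 1. Its FDR was 0.0729% and it ranked 78 by reads, close to RLK902. MKK2 (AT4G29810), a MAP kinase kinase gene that acts upstream of MPK4, had 203 reads, 100 forward and 103 reverse, and an FDR of 0.172%.

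Of 6 other genes in the list of genes related or linked to RLK902, EDR1 was the 1 under a peak. A place in this list does not by itself show binding to RLK902. Neither RKL1, the kinase most like RLK902, nor BSK1, a cytoplasmic kinase that associates with RLK902, was named. None of 21 pattern receptors and co-receptors was named. A peak of 167 reads on chromosome 5 from 25454768 carries the name FLS2, which the flagellin receptor (AT5G46330) shares with flavonol synthase 2 (AT5G63580). It belongs to flavonol synthase 2, since the named peaks on either side lie on AT5G63160 and AT5G63780, and a note added by hand to this peak gives the same locus. MKK2 was the 1 of 21 cytoplasmic immune kinases and oxidative burst genes.

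Among lipid signalling genes, none of the 11 other phospholipase D genes was named by a peak, PLDBETA2 (AT4G00240) included. None was named among 19 genes for diacylglycerol kinases, phospholipase C and other enzymes of phosphatidic acid and phosphoinositide metabolism. Among transcription factors, none of the 12 other group III WRKY genes was named, WRKY53, WRKY70 and WRKY46 included, and none of 20 further WRKY genes of defence. The lists for intracellular receptors and EDS1 (20 genes), salicylate (20) and jasmonate (18) held no gene under a peak. These lists are selections and not whole families. Genes of these kinds outside the lists could lie under a peak and would not have been counted. In the 6 lists with none, the upper exact 95% limits ran from 16.1% to 18.5%, far above the share of all genes, so a count of 0 does not show that these genes were avoided. Only genes in the overlap column were counted, and promoters were not scored.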

How the data were processed

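A single peak list of the whole series was analysed, on the TAIR 9 build per the submitters' processing notes. No source used here names its aligner or peak caller, or says how the Col-0 library entered. Per the file headers, each peak has a read count, in total and by strand, with no correction for length or depth. The deposited FDR is a percent, with a highest value of 4.99. Strand imbalance was deposited as a fraction, at the 4 peaks equal to the unsigned difference between strands divided by all reads, and the deposited p-value is a number whose test is not stated. Deposited length was end minus start in all 439 peaks.

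Annotation text on 177 continuation lines was joined. Locus tags, symbols and synonyms were looked up, within the same chromosome, in a RefSeq table (TAIR10.1), which matched all but 2 of 354 loci. It served for names and gene order. The order was taken from its start positions, and no other use was made of its coordinates. A name shared by loci of a chromosome took the locus lying between those of neighbouring peaks. Where several loci still fitted, the one with the name as its symbol was to be taken. The genes, lists and alternatives were chosen with earlier results of these data known. Of the 171 listed genes, all were in the table. The genes named are the 3 genes, their neighbours, the 2 nearest peaks each in reads, length and strand, genes with 2 peaks, and list genes at or within 3000 bp of a peak. Shares of reads have Wilson 95% intervals and shares of peaks or genes have exact binomial 95% intervals. Sequence under the peaks was not analysed here. Name matching and ranking were tested on simulated data. Scripts ran under Python 3.11.15 with SciPy 1.17.1, and figures were drawn with Matplotlib 3.10.9 and NumPy 2.4.6.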

Additional observations from a re-analysis of the deposited data

How the results depend on the processing

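The share of other peaks with fewer reads was 79.9% for RLK902, 13.2% for WRKY41, 40.2% for the lower-coordinate PLDBETA1 peak and 41.3% for the higher-coordinate one. Of 19 alternatives for it, 9 stayed within the exact 95% interval, a yardstick that leaves out error in a peak's own reads. Among peaks with an FDR under 1% it was 64.9%, 9.78% and 11.6% for RLK902 and the PLDBETA1 peaks in that order among 225 others (the cause was not tested), and the WRKY41 peak (FDR 2.12%) was itself left out. By reads per bp it was 84.0% for RLK902, 4.11% for WRKY41, 62.6% for the lower-coordinate and 9.82% for the higher-coordinate PLDBETA1 peak, since division by length lowers long peaks. By the smaller of forward and reverse reads it was 27.6% for WRKY41 and 51.6% for the higher-coordinate PLDBETA1 peak, whose strands were nearly even (the cause was not tested). Among peaks on protein-coding genes alone it was 83.8% for RLK902 (the cause was not tested). RLK902 ranked above the other peaks of these genes in every alternative. Summing the PLDBETA1 peaks gave 54.0% forward reads, within both intervals. Of 40 alternatives for the lists, 38 gave the same count, but many of these could not have differed. Limits on p-value or FDR can only lower a count, so they could not change the 6 lists with no gene under a peak. Every listed gene under a peak had a p-value of 0, so the p-value limit could not change the other lists either. The distance alternatives rest on the neighbour columns, and 152 of the 439 peaks had an empty one. With FDR under 1% the group III WRKY list went to 0, and with neighbours within 3000 bp the pattern receptor list went to 1 (AT1G27190). No paired analysis was possible because there were no replicates of either genotype. The motif alternative was not run, since no sequence was used here. Depth per library is unknown.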

Other observations

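A member of the pattern receptor list lay beside a peak rather than under it. The neighbour columns put AT1G27190 at 2288 bp from a peak of 147 reads (51 forward and 96 reverse, FDR 1.03%) that overlaps AT1G27180. Besides RLK902 and AT3G17830, the pairs of adjacent protein-coding genes with separate peaks were NSN1 (AT3G07050, 230 reads) with emb1974 (AT3G07060, 130 reads) and AT5G64110 (245 reads) with AT5G64120 (216 reads). These pairs were picked after their values were seen.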
